A study of Mus musculus with 8 samples.

Results

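The genes described here belong to the podocyte, the epithelial cell that wraps the capillaries of the kidney glomerulus. They were fixed by name as Nphs1, Kirrel, Cd2ap, Magi2, Podxl, Ptpro, Synpo and Wt1. Of these 8 names, 7 were on a probe with that gene symbol, each on 1 probe, out of 19505 genes on named probes, and Magi2 was not analysed here. Kidney RNA came from NZBWF1 mice, an F1 cross of New Zealand Black with New Zealand White, a classical model in which lupus and immune-complex glomerulonephritis arise with age. There were 4 mice of 28 weeks (replicates 6 to 9) and 4 mice of 8 weeks (replicates 1 to 4), with no treatment or allele named in the labels for either age and the same strain in both. The tissue was whole kidney, with 1 Clariom S Mouse array per mouse, and there was no strain without the disease, so age and disease cannot be told apart. Values are log2 expression after robust multi-array averaging (RMA).

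Podocytes send out interlocking foot processes, and the gap between neighbouring processes is closed by the slit diaphragm, a cell junction that forms the last layer of the filtration barrier. Nephrin, the product of Nphs1, and NEPH1, the product of Kirrel, are immunoglobulin-type adhesion proteins that bridge the gap, and adaptors such as CD2AP tie them to the actin cytoskeleton. Loss of foot process architecture accompanies proteinuria in many glomerular diseases, lupus nephritis among them. Podocytes are a small fraction of whole-kidney RNA, and fewer podocytes and less RNA per podocyte cannot be told apart in these samples.

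The label of the tissue fitted its markers, since the tubule genes Umod and Slc34a1 had values of at least 17.45 on every array. Podocyte genes differed in how specific their probes can be to the podocyte in whole kidney. Nphs1, Synpo, Wt1 and Ptpro are, within the kidney, mainly podocyte genes. Podxl is also made by endothelial cells, Ptpro also by some leukocytes, and Cd2ap and Kirrel also by other cells. The probes of Wt1 and Kirrel were dim, with means of 4.97 and 5.09 at 28 weeks and 5.25 and 4.91 at 8 weeks, below the median probe of the arrays at 6.06. RMA gives no detection call, so differences in these probes are the least certain.

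The 7 genes did not move as a block between the ages. Cd2ap was the highest in relative terms, at 1.65-fold of its 8-week level in 28-week kidneys, while Podxl, Ptpro, Synpo and Wt1 were at 71.7%, 73.5%, 77.2% and 82.8% of theirs. Nphs1 and Kirrel were at 103% and 113%. None of the 7 passed the threshold of an adjusted p of 0.05 (limma, Benjamini-Hochberg over all 22206 probes), where 0.968% of all probes did. At an unadjusted p under 0.05 there were 2 of the 7, Cd2ap and Podxl, against 15% of all probes. The median log2 difference of the 7, 28 weeks minus 8 weeks, was -0.27, beside -0.01 over all probes. The genes were chosen with earlier results of these data known, so these counts are descriptions.

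**Figure D1:**
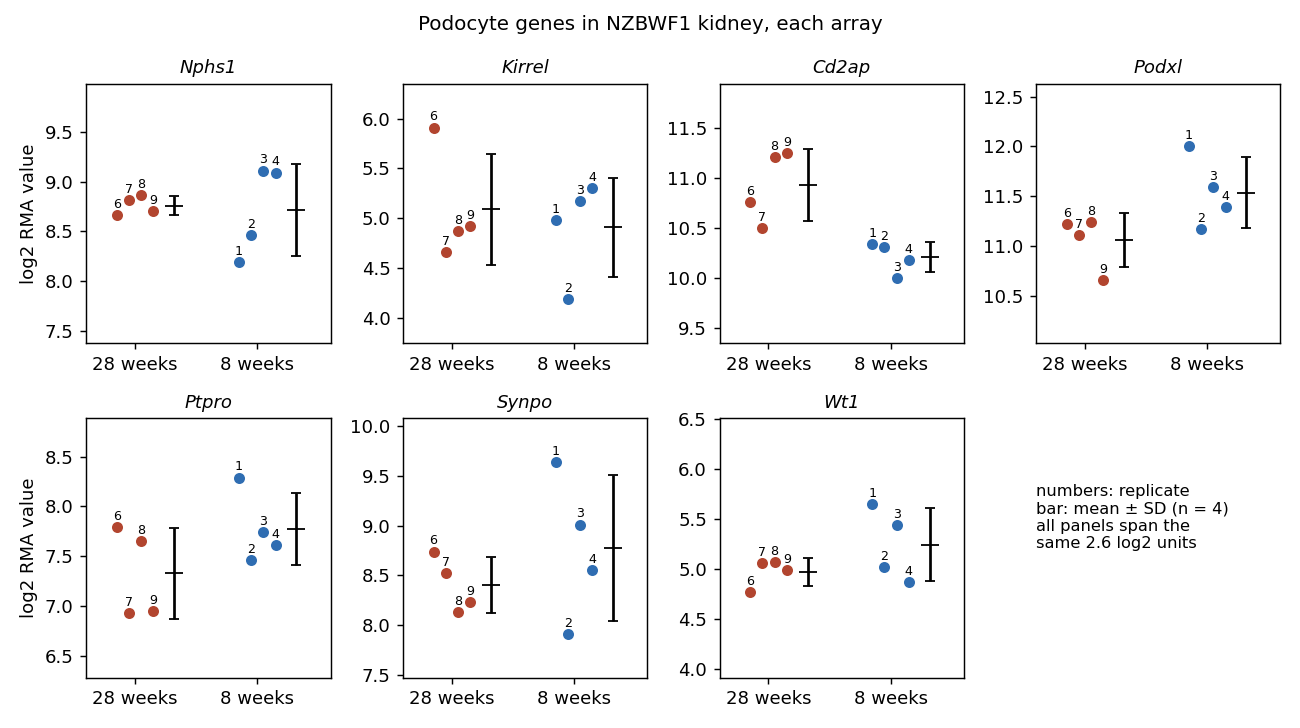
Log2 RMA value (vertical axis) of the 7 measured podocyte genes on each array at 28 weeks (left, red) and 8 weeks (right, blue), with the replicate number above each point and the mean ± SD (n = 4) beside it. Only the Cd2ap points separate by age, with every 28-week array above every 8-week array, and 8-week replicate 1 is the highest of the 8 arrays in Podxl, Ptpro, Synpo and Wt1.

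The differences of both slit diaphragm adhesion genes were smaller than the spread between mice, and their intervals were wide. Nphs1 (chromosome 7, from 30458207 to 30488623 in GRCm38.p6) had values of 8.66, 8.81, 8.86 and 8.70 in 28-week replicates 6 to 9, against 8.19, 8.46, 9.11 and 9.09 in 8-week replicates 1 to 4. All 28-week values lay inside the 8-week range, and the 8-week mice were split, with a pair low and a pair high. The means were 8.76 ± 0.09 at 28 weeks and 8.71 ± 0.46 at 8 weeks (SD, n = 4 each), a log2 difference of 0.05 with a 95% interval of -0.43 to 0.52 (limma adjusted p = 0.957). The interval reaches a level 0.74 times and 1.44 times that at 8 weeks, so a smaller loss or gain of nephrin mRNA was not detectable with these arrays.

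Kirrel, which encodes the nephrin partner NEPH1 (chromosome 3, from 87078593 to 87174777), had values of 5.91, 4.66, 4.87 and 4.92 in 28-week replicates 6 to 9. In 8-week replicates 1 to 4 it had 4.98, 4.19, 5.17 and 5.30. The groups overlapped almost wholly, and the highest and lowest of all values, in 28-week replicate 6 and 8-week replicate 2, set the spread of each group. The log2 difference was 0.18 (95% interval -0.51 to 0.87, limma adjusted p = 0.865), and it turned to -0.09 without 28-week replicate 6 and to -0.06 without 8-week replicate 2.

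Cd2ap, the adaptor that links nephrin to actin and to survival signalling (chromosome 17, from 42748887 to 42876707), was the one gene of the 7 whose ages did not overlap. Its values were 10.76, 10.50, 11.21 and 11.25 in 28-week replicates 6 to 9, against 10.34, 10.31, 10 and 10.18 in 8-week replicates 1 to 4. Every 28-week mouse lay above every 8-week mouse, replicate 7 by the least and replicates 8 and 9 by the most. Such separation was found in 8.71% of all probes and, with the 28-week arrays higher, in 4.38%. The means were 10.93 ± 0.36 at 28 weeks and 10.21 ± 0.16 at 8 weeks (SD, n = 4 each), a log2 difference of 0.72 with a 95% interval of 0.30 to 1.15. This did not pass the threshold over all probes (limma adjusted p = 0.105).

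The call for Cd2ap depended on 1 array. On the axis of largest variance over all probes (first principal component), 28-week replicate 7 was at -12.9 and the other 28-week arrays at 31.8 to 59.9. There 8-week replicate 1 was at -7.66 and 8-week replicates 2 to 4 at -39.5 to -29.6. Without 28-week replicate 7 the log2 difference was 0.87 and Cd2ap passed (limma adjusted p = 0.0216), in a fit where 5.57% of all probes passed. Without each of the other 7 arrays it did not pass, and over the 8 fits that left out 1 array its adjusted p lay between 0.0216 and 0.28. With arrays weighted by quality the difference was 0.81 (limma adjusted p = 0.0392), where 3.93% of all probes passed. With 8-week replicate 1 and 28-week replicate 7 both left out it was 0.91 (limma adjusted p = 0.0239), where 6.23% passed. This pair was picked by name and no other pair was left out, so that fit is a description. Because Cd2ap is not confined to podocytes, the levels of leukocyte and tubule markers are given beside it. The mean log2 value of 10 leukocyte markers was 9.55, 6.15, 8.78 and 8.29 in 28-week replicates 6 to 9, and 5.72 to 6.15 at 8 weeks. In 28-week replicate 7 this mean lay at the upper end of the 8-week range. Cd2ap was 10.76 in replicate 6, where this mean was highest, and 11.21 and 11.25 in replicates 8 and 9. The mean of 12 tubule markers was 15.49, 16.07, 15.50 and 15.50 in 28-week replicates 6 to 9, and 16.05 to 16.35 at 8 weeks. By single leukocyte marker the ages overlapped in all but 2 of the 10. Those 2 were higher in every 28-week mouse than in any 8-week mouse, beside 4.38% of all probes. These were Csf1r, at 11.05 in replicate 7 against a highest 8-week value of 10.70, and C1qa, at 6.55 against 6.40. Cd2ap was 10.50 in replicate 7 against a highest 8-week value of 10.34. The part of other cell types in the Cd2ap difference was not tested.

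Sequences around an annotated transcript start of Nphs1 and of Cd2ap are shown because Nphs1 had the difference nearest 0 of the 7 genes and Cd2ap separated by age. Each window holds 250 bases before and 50 after a start, from RefSeq on GRCm38.p6, read 5′ to 3′ along the gene's strand. The Nphs1 window is chr7:30459808-30460107 on the plus strand and the Cd2ap window is chr17:42876375-42876674 on the minus strand. Both windows lie inside the gene spans given above, which begin further upstream, so other starts of these genes are not shown. Capitals mark matches on either strand to GTGGGAG, the centre of a sequence bound by WT1, or to CAGCTG, an E-box of the kind bound by bHLH factors such as TCF21.
Nphs1: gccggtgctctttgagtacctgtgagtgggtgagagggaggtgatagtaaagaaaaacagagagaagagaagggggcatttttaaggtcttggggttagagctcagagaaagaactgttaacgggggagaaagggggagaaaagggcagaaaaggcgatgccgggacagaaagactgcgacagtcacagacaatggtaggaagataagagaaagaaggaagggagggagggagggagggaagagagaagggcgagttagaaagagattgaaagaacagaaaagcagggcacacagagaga
Cd2ap: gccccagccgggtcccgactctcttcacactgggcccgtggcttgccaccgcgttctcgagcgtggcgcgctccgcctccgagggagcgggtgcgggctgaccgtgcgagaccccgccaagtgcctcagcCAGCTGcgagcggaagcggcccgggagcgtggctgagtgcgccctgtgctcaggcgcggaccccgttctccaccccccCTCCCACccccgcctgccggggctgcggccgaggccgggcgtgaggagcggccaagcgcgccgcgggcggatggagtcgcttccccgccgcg
The Cd2ap window held 1 match to each motif, with no overlap between them, and the Nphs1 window held none. Of all 32851 windows given, 9.73% held GTGGGAG or its reverse complement and 16.3% held CAGCTG. Windows were given for 4 of the 7 genes. The Ptpro window held 1 match to GTGGGAG and none to CAGCTG, and the Kirrel window held neither. A match describes these letters only, and says nothing of binding.

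Podxl, Ptpro and Synpo, genes of the foot process surface and its actin, each had a lower mean at 28 weeks, and none passed the threshold. Podxl encodes podocalyxin, the negatively charged surface protein that keeps foot processes apart (chromosome 6, from 31519493 to 31563937). It had values of 11.22, 11.11, 11.24 and 10.66 in 28-week replicates 6 to 9, against 12.00, 11.17, 11.59 and 11.39 in 8-week replicates 1 to 4. The groups met at their edge, with 8-week replicate 2 below the 2 highest 28-week mice. The log2 difference was -0.48 (95% interval -0.94 to -0.02, limma adjusted p = 0.308, unadjusted p = 0.0428). It stayed negative whichever of the 8 arrays was left out, from -0.60 without 8-week replicate 2 to -0.33 without 8-week replicate 1.

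Ptpro encodes GLEPP1, a receptor tyrosine phosphatase of the foot process membrane (chromosome 6, from 137252299 to 137464634). Its values were 7.79, 6.93, 7.65 and 6.95 in 28-week replicates 6 to 9, against 8.29, 7.46, 7.74 and 7.61 in 8-week replicates 1 to 4. The 28-week mice fell into a pair inside the 8-week range (replicates 6 and 8) and a pair below it (replicates 7 and 9). The log2 difference was -0.45 (95% interval -1.01 to 0.12, limma adjusted p = 0.469), and it was -0.14 with 8-week replicate 1 and 28-week replicate 7 both removed. Some leukocytes also express Ptpro. The mean log2 value of the leukocyte markers was 9.55 and 8.78 in 28-week replicates 6 and 8, and 6.15 and 8.29 in replicates 7 and 9. In the 8-week mice, where Ptpro was 7.46 to 8.29, that mean was 5.72 to 6.15. The part of leukocytes in the Ptpro level was not tested.

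Synpo encodes synaptopodin, an actin-binding protein of the foot process (chromosome 18, from 60593981 to 60660173). It had values of 8.74, 8.52, 8.13 and 8.23 in 28-week replicates 6 to 9, against 9.64, 7.91, 9.01 and 8.55 in 8-week replicates 1 to 4. Both the highest and the lowest value belonged to 8-week mice, and all 28-week values fell between them. The log2 difference of -0.37 (95% interval -1.09 to 0.35, limma adjusted p = 0.669) became -0.09 without 8-week replicate 1.

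Wt1 encodes the transcription factor that specifies and maintains the podocyte and activates Nphs1 and Podxl (chromosome 2, from 105126529 to 105173614). Its values were 4.77, 5.06, 5.07 and 4.99 in 28-week replicates 6 to 9, against 5.65, 5.02, 5.44 and 4.87 in 8-week replicates 1 to 4. The 28-week mice were close together and overlapped the lower pair of 8-week mice. The log2 difference was -0.27 (95% interval -0.69 to 0.15, limma adjusted p = 0.577), and -0.14 without 8-week replicate 1.

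**Figure D2:**
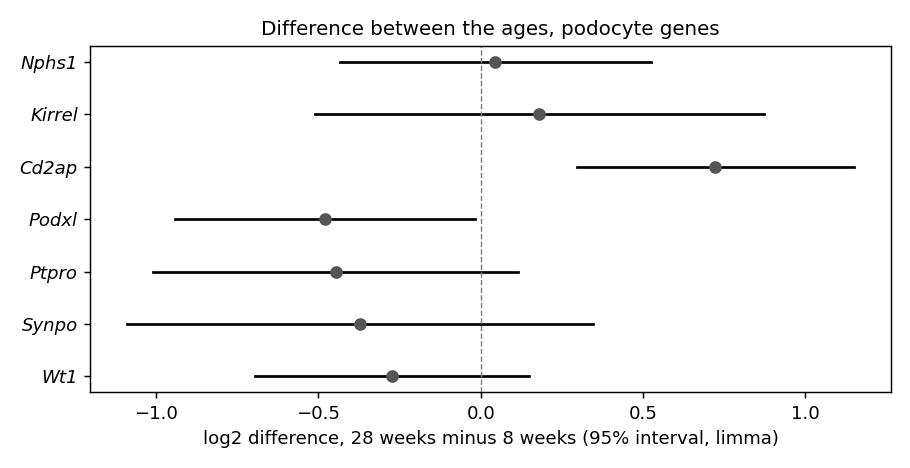
Log2 difference, 28 weeks minus 8 weeks (horizontal axis), of the 7 podocyte genes, with the 95% interval of the limma fit as a line. The intervals of Cd2ap (0.30 to 1.15) and Podxl (-0.94 to -0.02) lie on one side of 0 before adjustment over all probes, and those of the other 5 genes include 0.

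In each of the 7 genes but Cd2ap the ages overlapped. The SD at 28 weeks ran from 0.09 for Nphs1 to 0.56 for Kirrel, and at 8 weeks from 0.16 for Cd2ap to 0.73 for Synpo. A single mouse, 8-week replicate 1, was the highest of all 8 in 4 of the 7 genes (Podxl, Ptpro, Synpo and Wt1) and the lowest of all 8 in Nphs1. It was the highest array in 20.6% of all probes, so it stood apart in many genes besides these. The mean log2 value of 6 mesangial and mural cell markers was 9.995 in this mouse and 8.91 to 9.37 in the other 8-week mice. In the 28-week mice it was 9.08 to 10.24. This mouse also had the highest mean of all 8 for 12 tubule markers, at 16.35. The same held for 11 genes of the basement membrane and its receptors, at 10.89, and for the 7 podocyte genes, at 8.44. It also held for the lists of podocyte cytoskeleton (9.54), podocyte transcription factors and cell cycle (6.775) and other podocyte markers (9.195). It did not hold for slit diaphragm partners, podocyte injury and parietal genes, or endothelial, mesangial and leukocyte markers. The part of any cell type in the values of that array was not tested.

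Across the 8 arrays the genes most alike were Podxl and Ptpro (Pearson r = 0.876) and Podxl and Synpo (r = 0.805), the 2 of 21 pairs with r over 0.8. Both rested in part on 8-week replicate 1, with r of 0.765 and 0.554 over the other 7 arrays, where no pair was over 0.8. Nphs1 went against Podxl and Synpo over all 8 arrays, with r of -0.236 and -0.256, and with them over the 7 arrays, with r of 0.596 and 0.661. Cd2ap ran opposite to Podxl both with that array (r = -0.636) and without it (r = -0.734). These values describe arrays that also differ in age, share their normalization and are few.

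**Figure D3:**
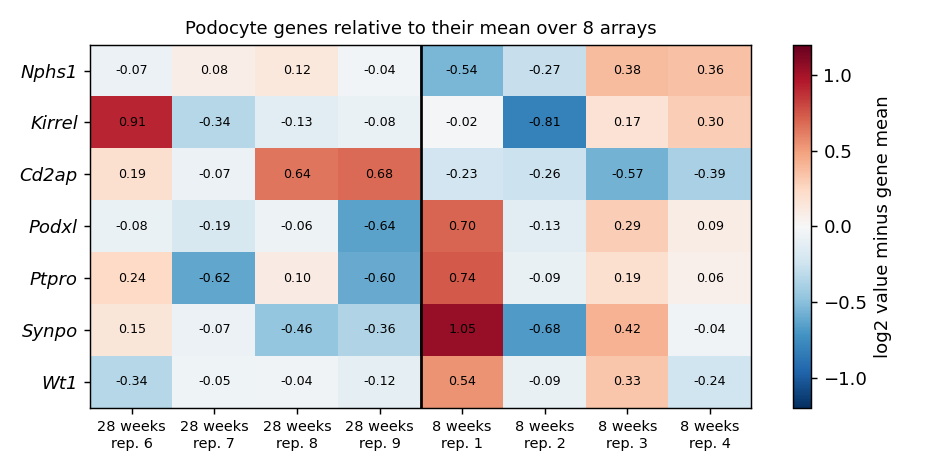
Log2 value of each podocyte gene (rows) on each array (columns, 28-week mice left of the line and 8-week mice right of it) minus the gene's mean over the 8 arrays; red is above and blue below that mean. Cd2ap is lower in all 4 of the 8-week mice than in any 28-week mouse, and 8-week replicate 1 is high in Podxl, Ptpro, Synpo and Wt1 and low in Nphs1.

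Genes outside the list that followed the mean of the 7 most closely were not podocyte genes of the lists used here. The 10 with the highest Pearson r over the 8 arrays were Akap13, Gfod1, Pcolce2, Pacs2, Iffo2, Ppp1r3c, Mrgprh, Scn2b, 9130230L23Rik and Lyve1, with r from 0.951 for Akap13 to 0.912 for Lyve1. Among the related podocyte genes the closest was Pard3, a polarity gene, at rank 301 of 19498 (r = 0.746), followed by the phospholipase gene Plce1 at rank 475 (r = 0.702). The 10 were picked as the highest of 19498 genes over 8 arrays, which by itself favours a high r. The mean of the 7 also joins genes that ran opposite to each other, such as Cd2ap and Podxl. The ranks are thus descriptions.

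The other genes of the slit diaphragm showed no call either. Of 11 measured partners 5 were higher and 6 lower at 28 weeks, none passed the threshold and their median log2 difference was -0.02. The 3 with the smallest p were the giant cadherin gene Fat1, the nephrin kinase gene Fyn and the polarity gene Crb2. Fat1 was 10.34, 9.35, 10.46 and 10.51 in 28-week replicates 6 to 9, against 10.32, 9.28, 9.04 and 9.11 in 8-week replicates 1 to 4. High Fat1 values were those of 28-week replicates 6, 8 and 9 and of 8-week replicate 1 (log2 difference 0.73, limma adjusted p = 0.343). Fyn had a log2 difference of 0.39 (limma adjusted p = 0.394) and Crb2 one of -0.30 (limma adjusted p = 0.422). The paralogs Kirrel2 and Kirrel3 had differences of -0.18 and -0.17 on dim probes.

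Among 13 genes of the podocyte cytoskeleton 7 were higher and 6 lower at 28 weeks, with none past the threshold. The 3 with the smallest p were all higher, as Cd2ap was. Myo1e, the gene of a membrane-linked myosin, was 11.13 ± 0.29 at 28 weeks and 10.46 ± 0.13 at 8 weeks (log2 difference 0.67, limma adjusted p = 0.0923), and Actn4, the gene of the actin crosslinker alpha-actinin-4, was 15.66 ± 0.05 at 28 weeks and 15.21 ± 0.17 at 8 weeks (0.45, limma adjusted p = 0.14). In both genes every 28-week mouse lay above every 8-week mouse, replicate 7 included, at 10.71 against a highest 8-week value of 10.60 for Myo1e and at 15.66 against 15.37 for Actn4. Anln, the gene of the actin-binding protein anillin, which dividing cells also use, was 6.23, 4.37, 6.09 and 6.17 in 28-week replicates 6 to 9, against 4.37 to 4.61 at 8 weeks (log2 difference 1.2, limma adjusted p = 0.148). Its value in 28-week replicate 7 was no higher than the lowest of the 8-week mice. Without 28-week replicate 7 Myo1e and Anln passed (limma adjusted p = 0.0115 and 0.000305), in a fit where 5.57% of all probes passed. These 3 genes are expressed outside podocytes as well. The foot process genes Clic5 and Ddn were picked after their values were seen. Both were lower in every 28-week mouse than in any 8-week mouse, with log2 differences of -0.52 and -0.35 (limma adjusted p = 0.152 and 0.245). With Myo1e and Actn4 these were the 4 of the 13 genes without overlap of the ages, beside 8.71% of all probes. The Ddn probe was dim, at 3.88 at 28 weeks and 4.23 at 8 weeks.

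Of 6 podocyte transcription factor and cell cycle genes 2 were higher and 4 lower, with none past the threshold. Dach1 was 7.43 ± 0.19 at 28 weeks and 7.94 ± 0.37 at 8 weeks (log2 difference -0.52, limma adjusted p = 0.246). It was the 1 of the 6 without overlap of the ages, beside 8.71% of all probes. Foxc1 had a difference of 0.47 (limma adjusted p = 0.291) and Foxc2, on a dim probe, one of -0.19 (limma adjusted p = 0.671). Without 8-week replicate 1 the difference was -0.33 for Dach1 and -0.06 for Foxc2. Lmx1b and Tcf21, which like Wt1 set podocyte identity, had differences of -0.16 and 0.08.

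Of 11 genes of the glomerular basement membrane and its receptors 1 passed the threshold. The ages did not overlap in 3 of the 11, beside 8.71% of all probes. Col4a5, which encodes the collagen IV chain that joins those of Col4a3 and Col4a4 in the mature basement membrane, fell at 28 weeks. Its values were 5.25, 4.94, 5.16 and 4.49 in 28-week replicates 6 to 9, against 5.86, 6.17, 6.04 and 5.79 in 8-week replicates 1 to 4. All 28-week mice were below all 8-week mice, replicate 7 among them, and the level at 28 weeks was 0.498 times that at 8 weeks (log2 difference -1.0, 95% interval -1.42 to -0.59, limma adjusted p = 0.0426). The probe was dim, and the call ended without each array but 28-week replicate 7, at adjusted p of up to 0.131. The partner chain Col4a3 was lower in all 28-week mice too, without passing (log2 difference -0.35, limma adjusted p = 0.269), and Col4a4 had a difference of -0.20 with overlap of the ages.

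Of 11 other podocyte markers 10 were lower and 1 higher at 28 weeks, where 48.7% of all probes were higher. Their median log2 difference was -0.26 and none passed the threshold. As for the 7 genes, these counts are descriptions. Vegfa, the endothelial growth factor that podocytes and tubules make, was 12.59 ± 0.18 at 28 weeks and 13.27 ± 0.37 at 8 weeks (log2 difference -0.68, limma adjusted p = 0.128). Robo2, a receptor that binds the nephrin complex through an adaptor, had a difference of -0.40 (limma adjusted p = 0.234), and Plce1 one of -0.48 (limma adjusted p = 0.334). The Plce1 difference was -0.32 without 28-week replicate 7. The mean log2 value of this list was 8.72 to 8.79 in the 28-week mice and 8.86 to 9.20 in the 8-week mice. Of 12 tubule markers 9 were lower as well, and the part of tubule cells in this list was not tested.

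Genes linked to podocyte injury and to the parietal epithelial cells of Bowman's capsule were mostly higher at 28 weeks, 12 of 13 against 48.7% of all probes. The ages did not overlap in 2 of the 13, beside 8.71% of all probes. The list was chosen with earlier results of these data known, so these counts are descriptions. The mean log2 value of this list was 8.66, 7.58, 8.43 and 8.42 in 28-week replicates 6 to 9, and 7.33 to 7.65 at 8 weeks. Replicate 7 was inside the 8-week range, as it was for the mean of the leukocyte markers. The part of leukocytes in these values was not tested. Cldn1, a tight junction gene of parietal cells that tubules also express, was the 1 that passed. Its values were 10.66, 10.12, 10.73 and 10.63 in 28-week replicates 6 to 9, against 9.76, 9.61, 8.83 and 9 in 8-week replicates 1 to 4. All 28-week mice were above all 8-week mice, with replicate 7 the nearest to them (2.35-fold, log2 difference 1.24, 95% interval 0.71 to 1.76, limma adjusted p = 0.0456). The call ended with array medians subtracted (limma adjusted p = 0.0566) and without 28-week replicates 6, 8 or 9 or 8-week replicates 2, 3 or 4, at adjusted p of up to 0.16.

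Markers of other glomerular and kidney cells give the setting of these values. Of 11 endothelial markers none passed, with 7 higher and 4 lower. The smallest p were those of Cdh5 (log2 difference 0.68, limma adjusted p = 0.166), Kdr (-0.40, 0.184) and Eng (0.59, 0.19). Kdr, the main receptor for the product of Vegfa, was the 1 of the 11 whose ages did not overlap, beside 8.71% of all probes. Of 6 mesangial and mural markers 3 were higher, 3 lower and none passed, with differences of 1.52 for Tagln, -0.22 for Agtr1a and 0.38 for Pdgfrb, which was 0.18 without 8-week replicate 2. All 10 leukocyte markers had higher means at 28 weeks and none passed, with differences of 4.54 for Lyz2, 2.52 for C1qa and 3.35 for C1qb at limma adjusted p of 0.0607, 0.0901 and 0.0958. Without 28-week replicate 7 Cdh5 and Tagln passed, at limma adjusted p of 0.0411 and 0.00885. So did these 3 leukocyte genes, at limma adjusted p of 0.000424, 0.000432 and 0.000295, with a Lyz2 difference of 5.62. In that fit 5.57% of all probes passed, against 0.968% as deposited. Of 12 tubule markers 9 were lower and 3 higher, and Slc22a6 passed (-0.91, limma adjusted p = 0.0313). That call held without 28-week replicate 7 or 8-week replicate 2 and ended without any other single array, at adjusted p of up to 0.123. The mean log2 value of the tubule list was 15.49 to 16.07 at 28 weeks and 16.05 to 16.35 at 8 weeks.

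**Figure D4:**
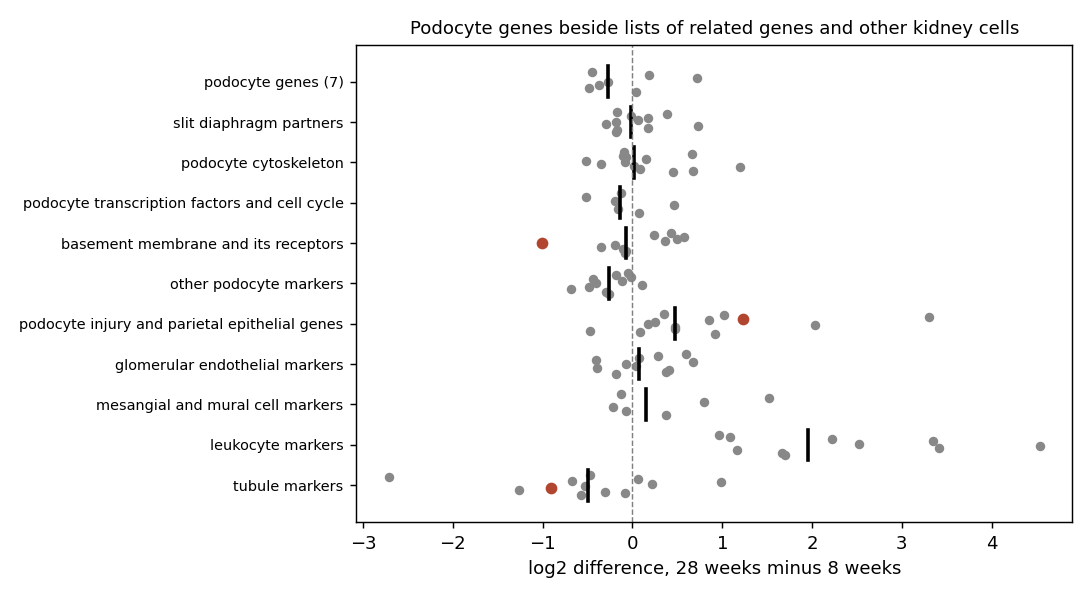
Log2 difference, 28 weeks minus 8 weeks (horizontal axis), of each measured gene, by list (rows); black bars are list medians and red points passed an adjusted p of 0.05 over all probes. The 7 podocyte genes span -0.48 to 0.72 with a median of -0.27, and the leukocyte markers lie between 0.97 and 4.54.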

How the data were processed

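Per the labels' protocols, Trizol-extracted kidney RNA was hybridized as biotinylated cRNA. The authors deposited log2 values per probe, and the submitters' processing notes name RMA, whose version is not given in the sources used here. That the base is 2 is inferred from RMA's usual output and the span of 2.31 to 19.89. Array medians were 5.98 to 6.14, and the number of arrays limits the precision. No batch or scan date was in the sources used here, and no 2 arrays were identical.

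Gene names came from the platform annotation (1 symbol for 19572 of 22206 probes, none for 2634, several for 0). All 7 measured members matched RefSeq by gene identifier. The brightest probe stood for a gene. The difference between ages was fitted on all probes with lmFit and eBayes in limma 3.58.1 (R 4.3.3) and p-values were adjusted by Benjamini-Hochberg, with a threshold of 0.05. Each array was taken as 1 mouse, as in the series' design. Members and lists (10 lists with 112 different names, 104 measured) were chosen with earlier results of these data known. Named were all members, the genes of each list past the threshold or else the 3 with the smallest p, and the 10 genes most like the members' mean; other genes were named after their values were seen. Alternatives covered normalization, dim probes, the variance model, gene rows and arrays left out. The choice to repeat correlations without 8-week replicate 1 followed from seeing the values. The fit was tested on simulated data with independent noise for each value. These data held no departure of a whole array, so that test does not cover the dependence on single arrays. Python 3.11.15 with pandas 2.3.3 made the tables and matplotlib 3.10.9 the figures.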

Additional observations from a re-analysis of the deposited data

Results flagged for a closer look

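The screen divided the gap between an end value and its neighbour by the range of the 4 values of an age. It flagged no array in the 7 podocyte genes, which does not mean that their arrays lay close together. Kirrel was 5.91 in 28-week replicate 6 and 4.66 to 4.92 in the other 3 of that age. Podxl was 10.66 in 28-week replicate 9 and 11.11 to 11.24 in the other 3. In the 24 related genes named by the rule, 7 values stood apart from the other 3 of their group, out of 62 groups screened for these 31 genes. For independent groups chance alone flags about 1 group in 20. These groups are the same 8 arrays seen again, so the count cannot be set against that rate. At 28 weeks all of the values that stood apart were the lowest and belonged to replicate 7, at 9.35 for Fat1, 6.65 for Fyn, 4.37 for Anln, 10.12 for Cldn1 and 8.46 for Tagln. At 8 weeks they were the highest value and belonged to replicate 1, at 7.06 for Fyn and 8.49 for Dach1.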

How the results depend on the processing

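No paired analysis was possible because the ages share no replicate number. As deposited 0 of 7 podocyte genes, 3 other genes of the lists and 215 probes passed. With array weights these counts were 1, 17 and 873, and with 8-week replicate 1 and 28-week replicate 7 both removed they were 1, 28 and 1384; the gene was Cd2ap in both. With the dimmest 50% of probes left out 5 other genes and 399 probes passed, in a fit over fewer probes. With trend and robust options 399 of all 22206 probes passed. Both fits left 0 podocyte genes past the threshold. An unmoderated test with unequal variances called 0 in each, with 1 podocyte gene, 31 other genes and 2568 probes at an unadjusted p under 0.05. Leaving out 1 array gave 0 to 1 podocyte genes, 0 to 24 other genes and 25 to 1237 probes, the most without 28-week replicate 7. Podxl, Ptpro, Synpo, Wt1 and Cd2ap kept their sign under every alternative in which they were tested, and Wt1 and Kirrel were not among the brighter 50% of probes. The Nphs1 difference was -0.016 with array medians subtracted and -0.072 with array weights, and with arrays left out it ran from -0.147 (without 8-week replicate 1 and 28-week replicate 7) to 0.1775, with -0.129 without 8-week replicate 1 and -0.039 without 8-week replicate 2. That of Kirrel ran from -0.093 without 28-week replicate 6 to 0.347, with -0.06 without 8-week replicate 2. The cause was not tested.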
